A study of Zea mays with 6 samples.

Results

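Transcript levels of 4 maize enzyme genes of glycolysis and pyruvate metabolism were described in endosperm of wild type (WT) and of the mutant smk8-ref. The genes are PHI1, GAPC3, GAPC2 and PPDK2, taken as all rows of the deposited table that carry one of these names. Each name stood for a single locus, and together the 4 loci held 30 transcripts, out of 36781 loci and 86771 transcripts in the table. The genes were chosen by their FPKM difference between the genotypes in these same libraries, so every genotype difference of its members is given as a description. Calls of the genes in a fit over all loci are quoted beside the share of all loci called, and the closing section gives how they depend on the processing. The calls rest on the same values that chose the genes, so they are no independent test.

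The series holds 6 RNA sequencing libraries from endosperm of Zea mays at 12 days after pollination, 3 from WT and 3 from smk8-ref. The gene that the smk8-ref allele affects, the inbred background and the number of kernels or ears behind a library are stated neither in the labels nor in the series text. Values are FPKM, a fragment abundance corrected for transcript length and library size, which can be compared between genes because it is set per length. FPKM sums lay between 287260 and 321002 per library. The files give no read totals, so the depth is unknown and no counting interval is given. The fixed endosperm and basal transfer layer marker lists, searched by name alone, matched no name in the table. These lists therefore gave no check of the labelled tissue, and defining markers may be present under other names.

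Endosperm cells take up sugar that arrives as sucrose and pass its hexose phosphates either to starch or down glycolysis. Glucose-6-phosphate isomerase, encoded by PHI1, interconverts glucose and fructose phosphates near the entry of the pathway. Cytosolic glyceraldehyde-3-phosphate dehydrogenase, encoded by GAPC genes, carries out the oxidation step that yields NADH. Pyruvate phosphate dikinase, encoded by PPDK2, interconverts pyruvate and phosphoenolpyruvate at the lower end, and is an abundant enzyme of the cereal endosperm.

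GAPC3 and PHI1 were the members with much lower levels in smk8-ref, at 25.2% and 29.4% of the WT mean. GAPC2, which encodes the same enzyme as GAPC3, stood at 89.3% of its WT mean with overlapping groups. PPDK2 stood at 67.8% of its WT mean, but its value in 1 WT library rested on a single transcript, T032. In WT the order of mean levels was PPDK2, GAPC3, GAPC2 and PHI1, and no neighbours in that order overlapped, although the lowest PPDK2 library (2259 FPKM) lay close to the highest GAPC3 library (2219 FPKM). In smk8-ref the order of means was the same, but GAPC3 and GAPC2 overlapped.

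**Figure D1:**
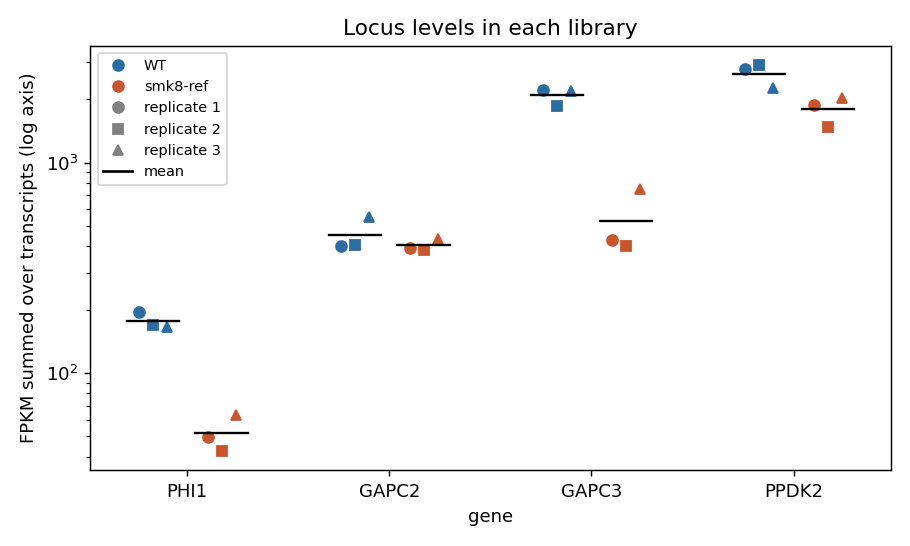
FPKM summed over the transcripts of each locus (log axis) in 3 WT and 3 smk8-ref libraries, with 1 marker shape per replicate number and a line at each group mean. GAPC3 lies near PPDK2 in WT and near GAPC2 in smk8-ref, while the GAPC2 groups overlap.

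PHI1 (Zm00001d034256, plus strand of chromosome 1, 288168990 to 288176921 in the coordinates of the table) had 195, 169 and 165 FPKM in WT replicates 1 to 3. It had 49.9, 42.6 and 63.2 FPKM in smk8-ref replicates 1 to 3. All smk8-ref libraries lay well under the lowest WT library. The means were 176 ± 16.6 FPKM (SD, n = 3) in WT and 51.9 ± 10.4 in smk8-ref. On the log2(FPKM + 1) scale, used for all log2 changes here, the difference was -1.76 ± 0.17 (SE), or 3.39-fold lower. Ranked by FPKM among all loci, PHI1 was between 205 and 276 in WT and between 610 and 1000 in smk8-ref.

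The 4 transcripts of PHI1 did not differ by the same factor. T001, the longest in span and the most abundant, had 155, 112 and 120 FPKM in WT replicates 1 to 3 and 47.9, 40.7 and 53.5 FPKM in smk8-ref replicates 1 to 3. The other transcripts start 274 (T003), 346 (T004) and 348 (T005) bases downstream of T001. T004 had 16.99, 22.0 and 22.3 FPKM in WT and 0.053, 0.016 and 1.98 FPKM in smk8-ref. T003 had 7.68, 12.97 and 9.33 FPKM in WT and 0.046, 0.00077 and 1.39 FPKM in smk8-ref. T003 and T004 were thus near 0 in smk8-ref replicates 1 and 2 and held a low level in replicate 3. T005 had 16.2, 21.7 and 13.2 FPKM in WT and 1.89, 1.91 and 6.31 FPKM in smk8-ref. No PHI1 transcript overlapped between the genotypes.

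By size, T001 carried 65.5% of the difference between the PHI1 group means, T004 15.9%, T005 11.0% and T003 7.64%. By factor the order was another one, with log2 changes of -3.85 ± 0.45 (SE) for T004, -2.99 ± 0.40 for T003, -2.16 ± 0.42 for T005 and -1.42 ± 0.17 for T001. The part of the locus held by transcripts other than T001 was 20.9%, 33.5% and 27.2% in WT replicates 1 to 3 and 3.99%, 4.53% and 15.3% in smk8-ref replicates 1 to 3. The mean share of T001 was 72.8% ± 6.31 (SD, n = 3) in WT and 92.1% ± 6.39 in smk8-ref, without overlap. StringTie divides reads among transcripts that share most of their bases, so the division within a locus is less certain than the sum.

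GAPC3 (Zm00001d051001, plus strand of chromosome 4, 136187079 to 136190530) had 2219, 1864 and 2180 FPKM in WT replicates 1 to 3 and 430, 403 and 746 FPKM in smk8-ref replicates 1 to 3. The highest smk8-ref library, replicate 3, was still under the lowest WT library. The means were 2088 ± 195 FPKM (SD, n = 3) and 526 ± 191, a log2 change of -2.04 ± 0.26 (SE), or 4.11-fold lower. GAPC3 ranked 14, 11 and 8 among all loci in WT replicates 1 to 3 and 60, 64 and 36 in smk8-ref replicates 1 to 3.

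Both GAPC3 transcripts in the table were lower. T002, which spans the whole locus, had 2104, 1769 and 2085 FPKM in WT and 397, 388 and 702 FPKM in smk8-ref. T004, which starts 475 bases downstream, had 115, 95.0 and 94.3 FPKM in WT and 33.5, 14.8 and 44.0 FPKM in smk8-ref. T002 carried 95.5% of the locus difference and T004 4.53%. The share of T002 was 95.1% ± 0.48 (SD, n = 3) in WT and 94.2% ± 2.06 in smk8-ref, and the shares overlapped. The dominant transcript thus carried the GAPC3 difference at a share that overlapped between genotypes, whereas the share of the dominant PHI1 transcript did not overlap.

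**Figure D2:**
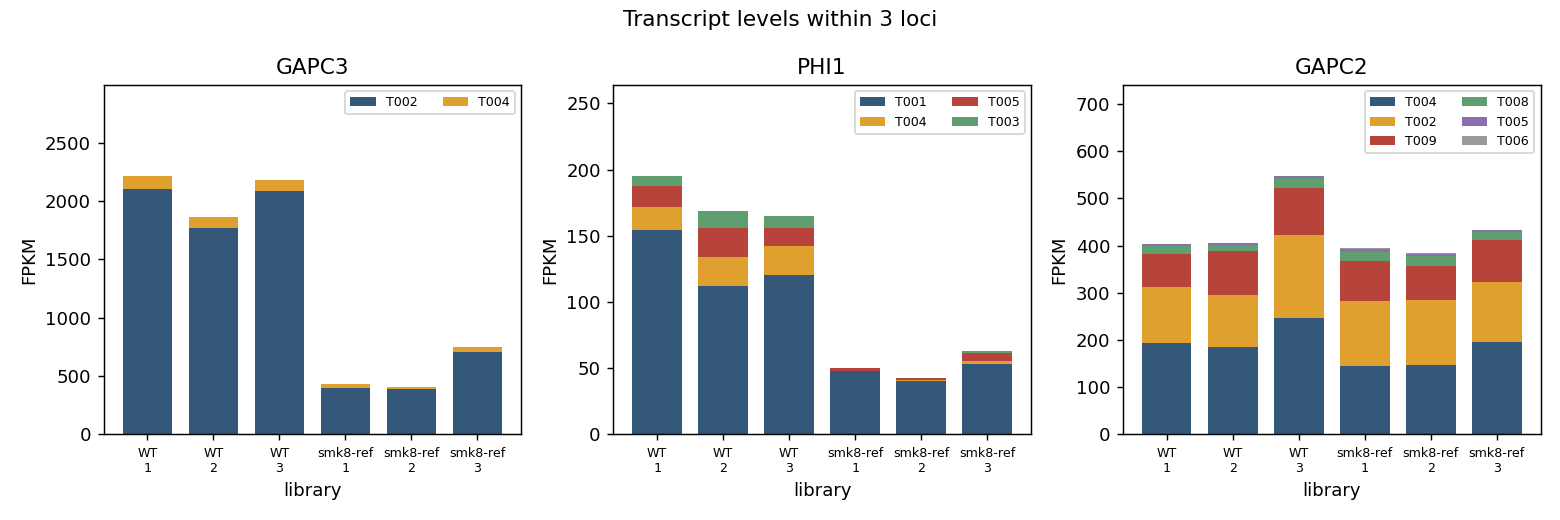
FPKM of each transcript of GAPC3, PHI1 and GAPC2, stacked per library, with replicate numbers under the genotype. GAPC3 is nearly all T002 in every library, PHI1 shows next to no T003 and T004 in smk8-ref replicates 1 and 2, and GAPC2 is made up mainly of T004, T002 and T009 throughout.

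GAPC2 (Zm00001d035156, plus strand of chromosome 6, 7238033 to 7242155) had 404, 406 and 549 FPKM in WT replicates 1 to 3 and 394, 384 and 434 FPKM in smk8-ref replicates 1 to 3. WT replicate 3 stood above all other libraries, and the rest lay between 384 and 434 FPKM. The log2 change was -0.15 ± 0.17 (SE), and without WT replicate 3 it was -0.0038.

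Among the 6 GAPC2 transcripts, T004 was the most abundant, with 195, 186 and 246 FPKM in WT and 146, 147 and 196 FPKM in smk8-ref. T002 had 117, 109 and 176 FPKM in WT and 136, 139 and 126 FPKM in smk8-ref. These transcripts share their start, and their groups overlapped. T009, which starts 1171 bases downstream, had 71.2 to 99.3 FPKM in WT and 70.4 to 89.0 FPKM in smk8-ref. The minor transcript T005 was the single one without overlap, at 3.44, 3.49 and 3.46 FPKM in WT and 6.005, 6.01 and 4.36 FPKM in smk8-ref, which is higher in the mutant. T006 and T008 had overlapping groups.

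The balance between both GAPC genes was therefore different in the mutant. GAPC3 exceeded GAPC2 by 5.50, 4.59 and 3.97 times in WT replicates 1 to 3 and by 1.09, 1.05 and 1.72 times in smk8-ref replicates 1 to 3. A ratio within a library does not depend on the scaling between libraries. Together the pair had 2540 ± 240 FPKM (SD, n = 3) in WT and 931 ± 217 in smk8-ref, and GAPC3 made up 82.2% ± 2.36 and 55.5% ± 6.66 of it. The ratio of GAPC3 to PHI1 moved less and overlapped, at 11.4, 11.0 and 13.2 in WT and 8.62, 9.46 and 11.8 in smk8-ref. How the authors divided reads shared by similar GAPC copies is not stated in the labels. Further cytosolic and plastid genes of this enzyme were not found under the names searched and were not analysed here.

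PPDK2 (Zm00001d010321, plus strand of chromosome 8, 109459050 to 109469711) had 2781, 2904 and 2259 FPKM in WT replicates 1 to 3 and 1886, 1475 and 2023 FPKM in smk8-ref replicates 1 to 3. The groups did not overlap, but WT replicate 3 and smk8-ref replicate 3 lay close together. The means were 2648 ± 343 FPKM (SD, n = 3) and 1795 ± 285, a log2 change of -0.57 ± 0.21 (SE). PPDK2 ranked between 3 and 9 among all loci in WT and between 12 and 21 in smk8-ref.

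In 5 of the 6 libraries T016 held most of PPDK2, with 2378 and 1921 FPKM in WT replicates 1 and 3 and 1614, 1288 and 1768 FPKM in smk8-ref replicates 1 to 3. In WT replicate 2 it had 809 FPKM, and T032 had 1936 FPKM there. T032 stood at 0.00037 and 0.52 FPKM in WT replicates 1 and 3 and at 0.0030, 0.00039 and 0.00051 FPKM in smk8-ref. T016 thus made up 85.5%, 27.8% and 85.0% of the locus in WT replicates 1 to 3 and 85.6%, 87.3% and 87.4% in smk8-ref replicates 1 to 3. Of the 18 PPDK2 transcripts, 13 had their lowest value of all libraries in WT replicate 2, among them T033, which was tied at 0 with WT replicate 3.

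The PPDK2 difference depends on how T032 is treated. T016 alone had a log2 change of -0.0026 ± 0.42 (SE), and of -0.47 without WT replicate 2. The whole locus had -0.49 without that library. T016 and T032 together had 2378, 2744 and 1921 FPKM in WT and 1614, 1288 and 1768 FPKM in smk8-ref, without overlap. The locus without T032 had 969 FPKM in WT replicate 2, the groups overlapped, and the log2 change was -0.037. With quantile normalization of the whole locus it was -0.89. The table annotates T032 with the name and position of T030, so its own span and length were not available, and a sum of FPKM over transcripts of different length shifts when reads pass from one to another.

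**Figure D3:**
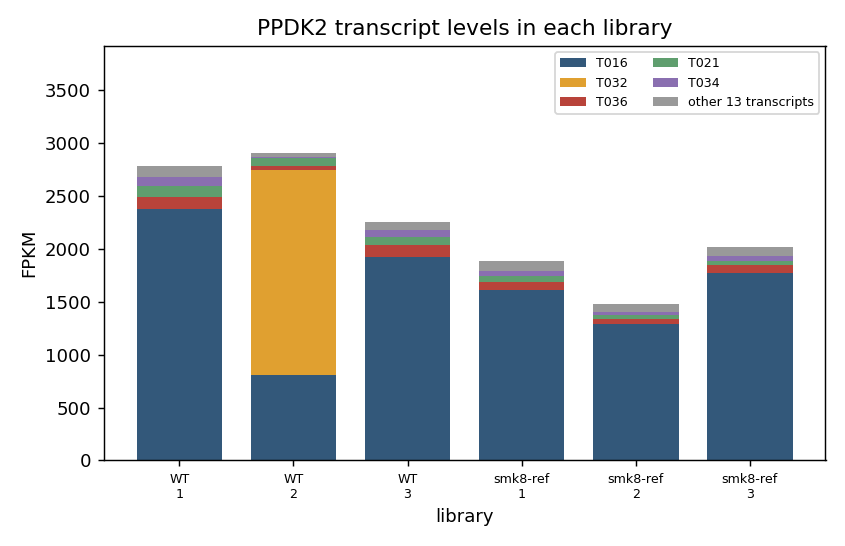
FPKM of the PPDK2 transcripts, stacked per library, with the 5 most abundant shown singly and the other 13 summed. T032 holds 1936 FPKM in WT replicate 2 and next to nothing elsewhere, and T016 is lowest there.

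The other PPDK2 transcripts were compared by where they start. T001 begins 5090 bases upstream of the next transcript and had 21.4, 6.49 and 13.5 FPKM in WT and 14.4, 9.99 and 16.95 FPKM in smk8-ref, with overlap. A group of 7 transcripts, T016 among them, starts between 109464140 and 109464162. A further 7 start downstream of these, between 109464625 and 109467020, and summed to 230, 47.8 and 195 FPKM in WT and 150, 101 and 147 FPKM in smk8-ref. In each of these start groups the genotypes overlapped, and WT replicate 2 was the lowest library. The groups leave out T027, T029 and T032, which the table annotates under another transcript's name, and so leave out the 1936 FPKM of T032 in WT replicate 2. With T032 added to T016, that library was the highest.

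Single PPDK2 transcripts without overlap went in both directions. T021 had 98.0, 78.4 and 70.2 FPKM in WT and 57.7, 43.0 and 42.2 FPKM in smk8-ref. T011 had 2.96, 9.29 and 11.3 FPKM in WT and 0.062, 0.062 and 2.03 FPKM in smk8-ref. T033 was higher in smk8-ref, at 28.5, 23.1 and 22.2 FPKM, against 18.0 FPKM in WT replicate 1 and a listed 0 in WT replicates 2 and 3. The remaining 3 without overlap, T003, T026 and T029, were higher in smk8-ref but under 0.3 FPKM in every library.

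**Figure D4:**
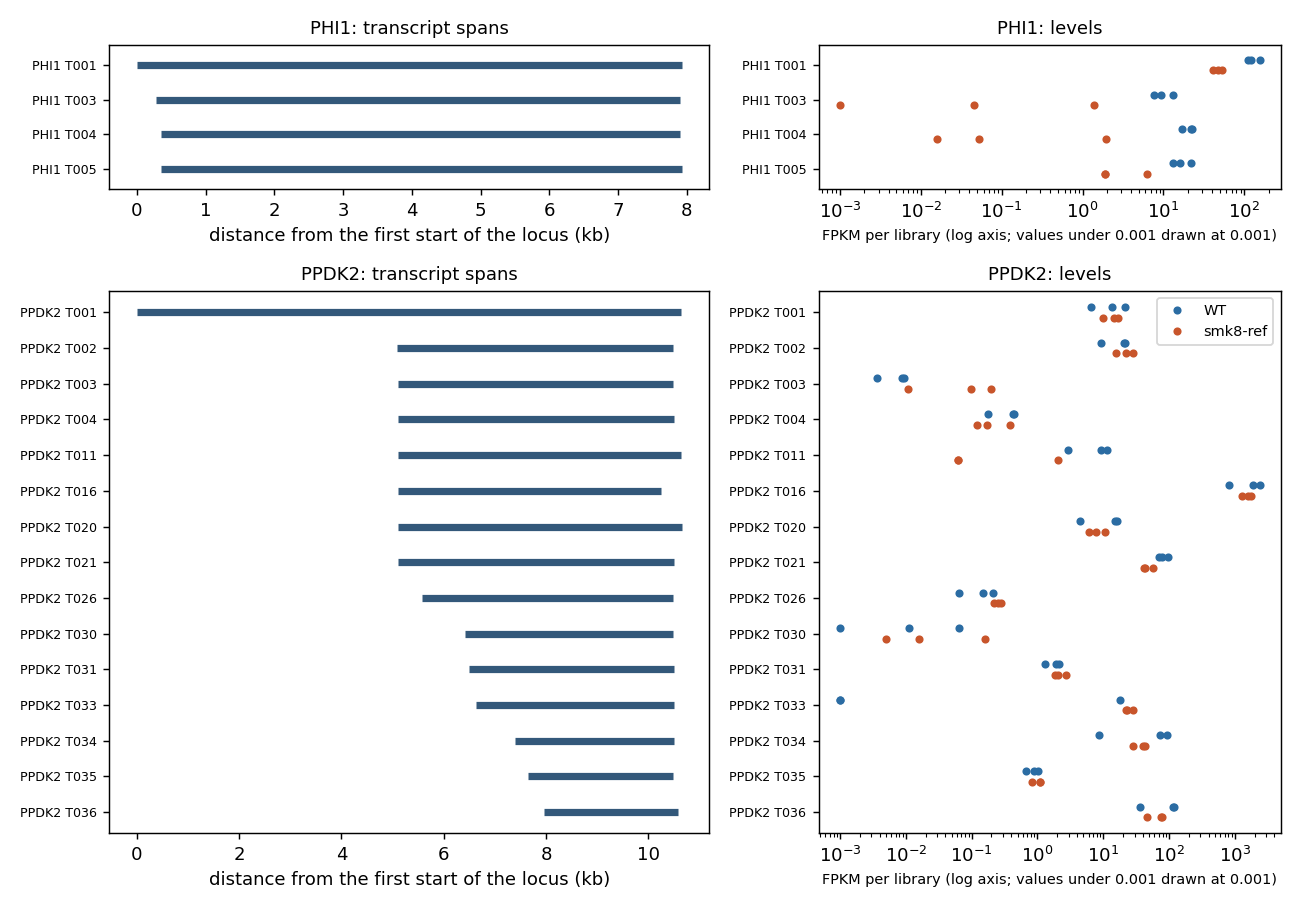
Left, span of each PHI1 and PPDK2 transcript as distance in kb from the first start of its locus; right, its FPKM in each library (log axis, 3 WT and 3 smk8-ref points). PPDK2 transcripts that the table annotates under another name are left out. All PHI1 transcripts separate by genotype, and most PPDK2 transcripts overlap.

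Over all 30 transcripts, 8 were lower and 5 higher in smk8-ref without overlap, and 17 overlapped. The same share over all transcripts of the table was 6.09% for lower and 11.1% for higher. Since the genotype difference chose the genes, nothing is read from these counts. Of the 30, 24 passed the filter of at least 1 FPKM in at least 3 libraries.

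The locus changes were set beside those of the 15858 loci that passed the same filter. In the limma fit over these loci, an adjusted p under 0.05 was reached by GAPC3 and PHI1, both lower, and not by GAPC2 and PPDK2, against 4.21% of all tested loci called lower and 7.60% called in either direction. GAPC3 lost its call when WT replicate 1 (log2 change -1.99), smk8-ref replicate 1 (-1.92) or smk8-ref replicate 2 (-1.88) was left out, and PHI1 without smk8-ref replicate 1 (-1.74). The number of loci called was 1205 with all libraries and 28 to 1425 with 1 left out. FPKM as deposited gave 538 loci higher and 667 lower, and TMM scaling 305 higher and 813 lower. The groups were apart and lower in smk8-ref for GAPC3, PHI1 and PPDK2, against 15.9% of all tested loci lower without overlap and 34.5% without overlap in either direction. As the contrast chose the genes, these shares are given as background alone.

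A log2 change as low as that of GAPC3 or lower was found for 23 tested loci, as low as that of PHI1 for 44, and as low as that of PPDK2 for 1397. Each count includes the gene itself. Highly expressed loci leaned downwards as a whole. Of the 401 loci with a mean of at least 100 FPKM over all libraries, 74.6% had a negative log2 change and the median was -0.44, against 44.5% and 0.05 over all tested loci. Among these 401, 8 had a change as low as that of PHI1 or lower, with PHI1 and GAPC3 included. The change of PPDK2 lay near the median of these highly expressed loci with T032 included (-0.57), but not without T032 (-0.037). GAPC3 and PHI1 lay near the lower end of these loci.

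**Figure D5:**
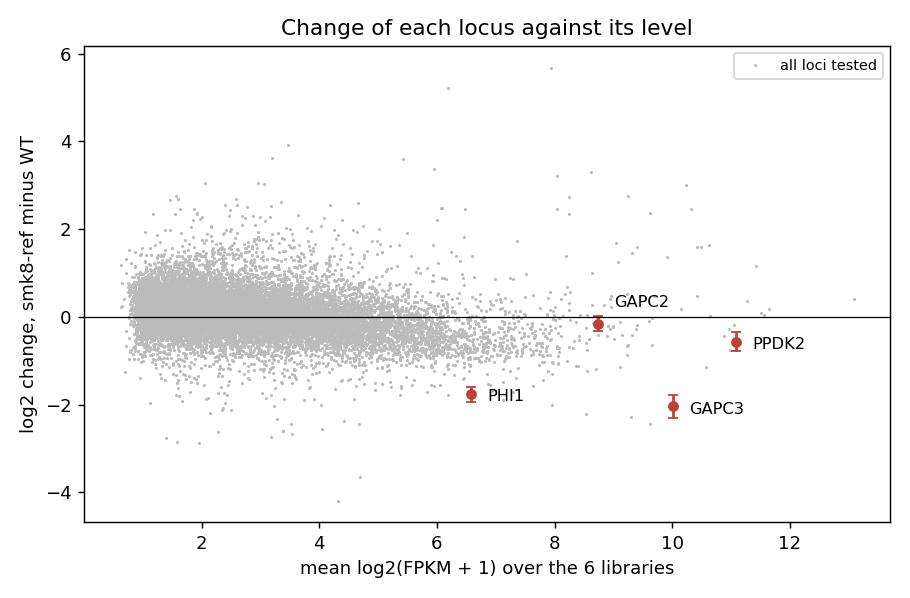
Log2 change of each of 15858 loci (smk8-ref minus WT) against its mean log2(FPKM + 1) over the 6 libraries, with the 4 genes in red and bars of 1 SE. GAPC3 and PHI1 lie at the lower edge of the cloud for their level, and GAPC2 and PPDK2 lie within it.

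The smk8-ref libraries had the same order in all 4 genes, with replicate 3 highest and replicate 2 lowest. In GAPC3, replicate 3 was also apart in its ratio to GAPC2. The WT libraries had no shared order: replicate 3 was highest for GAPC2 and lowest for PHI1 and PPDK2.

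Named genes with the most similar profile were sought by the root mean square difference of log2(FPKM + 1), each gene centred on its own mean over the 6 libraries. GAPC3 and PHI1, both chosen for their genotype difference, were each other's nearest named gene, with a difference of 0.21. Next to GAPC3 came H4C7 at Zm00001d039733 (0.37) and H3C2 at Zm00001d045268 (0.41), both histone genes. Next to PHI1 came the aquaporin gene SIP2-1 (0.27) and the same H4C7 gene (0.31). Close to GAPC2 were the cyclin-dependent kinase gene CDC2 (0.080) and the ferredoxin gene FDX3 (0.099). Close to PPDK2 were ndhE (0.064), a plastid NADH dehydrogenase subunit gene, and rps2 (0.086), a plastid ribosomal protein gene. GAPC3 and GAPC2 differed by 0.98 on this measure.

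Few other listed names of these pathways were found, and the search was by name alone. Of 112 names listed for glycolysis, fermentation and pyruvate metabolism, 2 were found, FRK2 at 2 loci and PK1 at 1, and of 12 listed names of sucrose entry and starch synthesis none was found. Of the 3 loci, 2 could be tested and 0 passed in limma, with 0 at an unadjusted p under 0.05. FRK2, a fructokinase gene, had 11.7, 1.24 and 28.3 FPKM in WT replicates 1 to 3 and 1.55, 16.2 and 26.0 FPKM in smk8-ref replicates 1 to 3 at Zm00001d035037. At Zm00001d035038 it had 0.40, 13.8 and 0.50 FPKM in WT and 28.2, 8.21 and 7.85 FPKM in smk8-ref. The second locus was the higher one in WT replicate 2 and smk8-ref replicate 1, and the first in the other libraries. Their sum was 12.1, 15.02 and 28.8 FPKM in WT and 29.8, 24.4 and 33.9 FPKM in smk8-ref, with overlap. PK1 stayed under 0.4 FPKM in every library. Whether the gene named PK1 encodes an enzyme of these pathways was not checked, so its level is not read as that of one.

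Of the sugar phosphate and sucrose genes picked after the names had been seen, SPS, a sucrose phosphate synthase gene, had 4.77, 4.81 and 2.46 FPKM in WT and 1.59, 2.80 and 2.21 FPKM in smk8-ref, with overlap. TPT, a triose phosphate translocator gene of the plastid envelope, had 1.61 to 2.13 FPKM in WT and 1.16 to 2.001 FPKM in smk8-ref. SPP2, a sucrose phosphatase gene, had 0.27, 0.21 and 0.53 FPKM in WT and 1.53, 0.97 and 0.57 FPKM in smk8-ref. It was higher in smk8-ref without overlap, but too low to be tested. Neither SPS nor TPT passed in limma (adjusted p = 0.17 and 0.62). SPS, TPT and SPP2 all stayed far under the levels of the 4 enzyme genes.

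Markers of other kernel tissues were set beside these values. The 4 embryo marker genes found (OBAP1A, OBAP2A, OBAP2B and KN-1) summed to 20.7, 26.2 and 68.0 FPKM in WT replicates 1 to 3. In smk8-ref replicates 1 to 3 they summed to 89.1, 59.1 and 77.6 FPKM, so that only WT replicate 3 reached the smk8-ref range. Each had a higher mean in smk8-ref, at 179% to 218% of its WT mean, and OBAP2A and KN-1 did not overlap. None was at 0 and none was called by limma. The 3 green tissue genes summed to 127 to 138 FPKM in WT and 154 to 195 FPKM in smk8-ref, nearly all of it psbA, while CAB1 and RBCS stayed under 0.6 FPKM. The embryo-surrounding region genes ESR1 and ESR3 summed to 4.73 to 6.39 FPKM in WT and 0.91 to 8.51 FPKM in smk8-ref, and limma called 1 of them. This was ESR3, which fell from 3.22, 3.23 and 4.68 FPKM in WT replicates 1 to 3 to 0.31, 1.75 and 0.84 FPKM in smk8-ref replicates 1 to 3, or 26.1% of the WT mean (adjusted p = 0.043). ESR1 had at most 1.90 FPKM in WT, and 0.60, 6.76 and 1.06 FPKM in smk8-ref, where replicate 2 set the upper end of the sum. The aleurone gene CR4 had 7.24 to 8.93 FPKM in WT and 9.24 to 10.4 FPKM in smk8-ref. The part of tissue composition in the differences above was not tested, and in bulk endosperm fewer cells of a type and less RNA per cell cannot be told apart.

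The authors' deposited table marks both GAPC3 transcripts and all 4 PHI1 transcripts as down, none of the 6 GAPC2 transcripts, and 2 PPDK2 transcripts as down and 5 as up. These marks are no calls at a low q-value. GAPC3 T004 is marked down and PPDK2 T034 up at q-values of 0.87 and 0.90 in the authors' deposited table. Over the whole authors' deposited table, 2.31% of transcripts are marked down and 2.53% up. In the authors' deposited table the log2 fold change is -2.12 for GAPC3 T002, -1.11 for PHI1 T001, -4.46 for PHI1 T004 and -3.63 for PHI1 T003, with q-values of 0.70, 0.68, 0.68 and 0.68. For PPDK2 the authors' deposited table gives -8.78 for T032, which was high in 1 WT library alone, and 0.79 for T016, although the mean FPKM of T016 was 1702 in WT and 1556 in smk8-ref.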

How the data were processed

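Endosperm RNA of 3 WT and 3 smk8-ref libraries was sequenced. The authors deposited 1 FPKM value per transcript and library. HISAT and StringTie are named in the submitters' processing notes; no version, setting or genome build is stated there or in the labels. The authors also deposited their own comparison of each transcript, as a fold change (a ratio), a log2 value, a p-value and a q-value, with no model named.

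FPKM was added up over the transcripts of a locus, read from the first part of the identifier. Loci reaching 1 FPKM in 3 or more libraries were fitted on log2(FPKM + 1), a scale that understates changes of low genes, with limma 3.58.1 in R 4.3.3 (variance trend, two-sided, Benjamini-Hochberg adjustment, threshold 0.05). The fit was run on simulated normal values with added changes larger in size than those of PHI1, PPDK2 and GAPC2. That run therefore says nothing of changes of their size. Changes of single transcripts come from the same model over all transcripts without the filter. The p-values measure the spread between libraries, whose separate origin is not stated. The members and lists were chosen with earlier results of these data known. Genes were named by this rule: the members and their transcripts, listed pathway genes found in the table, and the 3 named loci of at least 5 FPKM nearest to each member, some of which are not reported here. Each member name matched 1 RefSeq gene by symbol or synonym; the table's build differs or is unnamed, so no RefSeq coordinate was used. Sequences and promoter motifs were not analysed here.

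The alternatives were other pseudocounts (0.1 and 5), no filter or a filter at 5 FPKM, TMM scaling (unweighted), quantile normalization, a replicate block, transcripts fitted singly, group sums in place of library means, and each library left out.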

Additional observations from a re-analysis of the deposited data

How the results depend on the processing

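Leaving T032 out of PPDK2 was chosen after seeing the data. No locus change of GAPC3, PHI1, GAPC2 or PPDK2 reversed under any alternative run, but for GAPC3, PHI1 and PPDK2 groups that do not overlap fix this where 1 library is left out. With 1 library left out, the log2 change ranged from -2.32 to -1.88 for GAPC3, from -1.91 to -1.63 for PHI1, from -0.22 to -0.0038 for GAPC2 and from -0.68 to -0.43 for PPDK2, from -0.47 to 0.31 for PPDK2 T016, and the log2 GAPC3 to GAPC2 ratio differed by -2.12 to -1.76. GAPC3 was not called in limma without WT replicate 1, smk8-ref replicate 1 or smk8-ref replicate 2, nor PHI1 without smk8-ref replicate 1. With the replicate block the log2 changes were -2.04 for GAPC3 and -1.76 for PHI1, neither called, and 36 loci passed; same-numbered libraries had deviations that correlated at 0.0069, -0.0085 and 0.083, so the numbers were not taken to pair them. PPDK2, at -0.57, moved to -0.037 without T032, to -0.73 with TMM scaling and to -0.89 with quantile normalization, and limma called it in none of the fits run; T032 was left out without a fit. The number of loci called, 1205, was 388 with no filter, 779 with quantile normalization and 490 among transcripts, and 28 to 1425 with 1 library left out. TMM scaling moved the median log2 change of all loci from 0.05 to -0.07 and gave -0.31 for GAPC2, not called. Why calls were lost under these alternatives, the cause, was not tested.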
